A study of Mus musculus with 4 samples.

Results

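The rows examined were the variable (V) segments of the T cell receptor alpha and beta chains in CD45+ cells from subcutaneous mouse tumours treated with vehicle or interleukin-27 (IL-27), a cytokine that acts on T cells. Members were all rows whose symbol begins with Trav or Trbv, which gave 163 of the 32285 rows, 128 of them Trav and 35 Trbv. In each cell the leading segment of a chain was the one with the most unique molecular identifiers (UMIs, each standing for 1 captured transcript), and a cell with a tie was given none. Leading segments were counted in barcodes with at least 1 UMI summed over Cd3d, Cd3e and Cd3g, the genes of the CD3 chains that accompany the receptor. Of 10617 kept barcodes in the control matrix 924 (8.70%) met this, and of 9990 in the IL-27 matrix 906 (9.07%) did.

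All mice were B6C3F1, the first-generation cross of C57BL/6 with C3H, 6 to 8 weeks old, and carried tumours of OV2944-HM1, a mouse ovarian cancer line, grown from 1000000 injected cells. The control group received vehicle and the IL_27 group 100 ng of recombinant mouse IL-27 per mouse into the tumour, from the day of implantation and every other day, with tumours taken on day 14. Cells held by CD45 beads went into 10x Genomics 5′ libraries. The labels list 4 entries, 2 per group, but there is 1 matrix per group and no map from cells to entries or mice, so every comparison is of 1 matrix with 1 matrix, has no replicate check and carries no p-value. All intervals in parentheses are 95% intervals that cover counting error only, and treatment and differences between the mice of each matrix cannot be told apart.

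An alpha beta T cell builds its receptor by joining 1 V segment of each chain to shorter joining segments, and for the beta chain a diversity segment, which are then spliced to a constant region. The V segment supplies the first and second complementarity-determining loops and the start of the third, the part that meets peptide bound to major histocompatibility complex (MHC) molecules. Daughters of 1 T cell keep its V segments, so a V pair carried by many cells can be the trace of an expanded clone, but cells with the same pair can also come from different clones because the joints differ. The joints are not read by a gene count table, so a V pair here is not a clonotype, and the paired V(D)J libraries were not used here.

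The 4 segments below make up the most frequent CD8 pair of each matrix, and their germline V exons are shown because these are the letters the counted transcripts share. They are the coding V exons of the GENCODE M21 transcripts on GRCm38, read 5′ to 3′ on the plus strand, with the bases from the last cysteine codon onward, where the third loop begins, in capitals. Trbv16 lies at chr6:41151933-41152230, Trbv4 at chr6:41059592-41059886, the last 300 bases of the Trav14-1 exon at chr14:53554259-53554558 and Trav8d-1 at chr14:52778711-52778995.
Trbv16: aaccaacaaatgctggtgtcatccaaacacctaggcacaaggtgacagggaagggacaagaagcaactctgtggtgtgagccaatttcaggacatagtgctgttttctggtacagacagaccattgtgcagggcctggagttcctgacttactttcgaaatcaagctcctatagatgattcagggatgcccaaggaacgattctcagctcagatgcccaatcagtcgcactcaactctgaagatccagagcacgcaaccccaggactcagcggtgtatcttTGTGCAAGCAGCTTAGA
Trbv4: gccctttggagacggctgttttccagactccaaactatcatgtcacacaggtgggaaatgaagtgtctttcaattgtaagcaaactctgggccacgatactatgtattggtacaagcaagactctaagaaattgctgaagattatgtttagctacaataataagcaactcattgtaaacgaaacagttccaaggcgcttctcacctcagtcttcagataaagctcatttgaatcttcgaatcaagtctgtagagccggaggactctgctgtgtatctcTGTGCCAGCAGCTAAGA
Trav14-1: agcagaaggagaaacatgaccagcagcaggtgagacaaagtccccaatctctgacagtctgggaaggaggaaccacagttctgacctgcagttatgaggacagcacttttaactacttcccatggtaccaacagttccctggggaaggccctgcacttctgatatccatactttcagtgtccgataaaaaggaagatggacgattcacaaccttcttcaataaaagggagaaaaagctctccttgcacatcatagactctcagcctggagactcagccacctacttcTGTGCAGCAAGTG
Trav8d-1: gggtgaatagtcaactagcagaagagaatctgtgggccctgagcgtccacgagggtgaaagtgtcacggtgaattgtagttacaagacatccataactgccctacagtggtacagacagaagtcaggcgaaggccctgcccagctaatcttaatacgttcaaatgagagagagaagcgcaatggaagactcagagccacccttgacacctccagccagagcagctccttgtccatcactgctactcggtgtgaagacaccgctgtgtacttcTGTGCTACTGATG
Trbv16 and Trbv4 share 57.9% of aligned bases, and Trav14-1 and Trav8d-1 share 58.7%. The alpha locus also holds near-identical copies that the names mark as plain, d and n. An exon was found for 130 of the 163 members, 108 Trav and 22 Trbv. Of the 108 Trav exons 91 were at least 95% identical to another Trav exon, 34 were identical to one and 36 held no stretch of 90 bases found in them alone, whereas none of the 22 Trbv exons reached 95%. Trav8d-1 differs from Trav8-1 at 3 positions, C30T, T31C and G129A (counted from 1 at the 5′ end of the exon, the Trav8d-1 base first), and Trav7d-4 differs from Trav7-4 at 1, C158A. Trav14-1 is 95.8% identical to Trav14d-1 and to Trav14n-1. The C3H alleles of these mice are not in the build, so the name of a Trav copy is uncertain, and pair counts are also given with the copies of 1 name collapsed where that changes them.

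The control matrix held 10784 barcodes and 54049661 UMIs and the IL-27 matrix 10183 and 43868189, and the median UMI count of a T cell was 5406.5 and 4054. T cells were called CD8 with a UMI of Cd8a or Cd8b1, Foxp3-positive with a UMI of Foxp3, the factor that defines regulatory T cells, and other with neither. This gave 288, 243 and 370 cells in the control and 115, 331 and 436 in the IL-27 matrix, with 23 and 24 cells carrying both marks reported apart. Cd4, which no gate used, stood at 3.41 CPM (counts per 1000000 UMIs) in control CD8 cells and 209.6 CPM in control Foxp3-positive cells. In the IL-27 matrix it stood at 20.7 and 216.1 CPM. The 5 regulatory T cell markers summed to 1012 and 4836 CPM in the control and 1095 and 5007 CPM in the IL-27 matrix, in the same order. That list includes Foxp3, which the gate used, so part of this difference was set by the rule. The other class is less clean, since 34.9% of its control cells and 17.4% of its IL-27 cells carried at least 10 UMIs of S100a8 and S100a9, genes of neutrophils. Natural killer cell markers summed to 1796 and 1026 CPM in it, against 408 and 484 CPM in CD8 cells. A single CD3 UMI was all that 50% and 37.8% of its cells held, against 2.43% and 5.22% of CD8 cells. It can thus hold cells that are not T cells, and the part of this in its results was not tested. The labels call the sorted cells lymphocytes, whereas 2610 kept control and 1799 kept IL-27 barcodes carried neutrophil markers. Both matrices shared 133 barcodes, of which 1 passed the CD3 gate in each, led by Trbv31 in both.

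V segment UMIs sat almost wholly in T cells. The T-gated barcodes held 99.2% of the 6000 Trbv UMIs of kept control barcodes and 98.3% of the 1870 of IL-27 barcodes, and 99.3% and 97.7% of the Trav UMIs. In barcodes with neutrophil markers 1.30% (0.904 to 1.82) and 1.33% (0.857 to 1.98) held a Trbv UMI, at median depths of 2522 and 1884 UMIs. These barcodes include 116 and 62 that passed the CD3 gate. Only 10 of the 34 control and 11 of the 24 IL-27 barcodes with a Trbv UMI had no CD3 UMI. The shares are therefore not the level in cells that lack the gene. Of the 35 Trbv rows 22 were seen in each matrix, 20 of them in both, and 20 led a cell in 1 matrix or the other. Of the 128 Trav rows 85 and 77 were seen, 73 in both, and 75 led a cell. The 33 rows annotated as pseudogenes led no cell for Trbv and 1 and 2 cells for Trav.

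A leading Trbv was found in a larger share of control than of IL-27 T cells. It was found in 65.0% (61.9 to 68.1) of control and 47.2% (43.9 to 50.6) of IL-27 T cells, and a leading Trav in 52.6% (49.3 to 55.9) and 35.1%. A leading Trbv was present in 94.8% and 73.0% of CD8 cells, in 77.8% and 49.8% of Foxp3-positive cells and in 31.9% and 38.1% of other cells. A leading Trav was present in 75.3% and 55.7%, 67.9% and 47.1%, and 23.2% and 19.3% in the same order, so other cells were higher in the IL-27 matrix for Trbv and lower for Trav. Median depths in the same order were 8105 and 7089, 5644 and 4705, and 3172 and 3239 UMIs. All cells were then thinned to 1000 UMIs and gated and classed again on the thinned counts. This left 697 of the 924 control and 665 of the 906 IL-27 T cells, since 31 and 36 were shallower and the rest of those lost had no CD3 UMI after thinning. Among the cells left 50.5% and 23.2% had a leading Trbv. The IL-27 share was then lower in each class, at 65.3% and 36.5% in CD8, 48.5% and 16.3% in Foxp3-positive and 43.5% and 23.6% in other cells. The thinned classes hold other sets of cells, since a cell whose Cd8a, Cd8b1 or Foxp3 UMIs are lost is counted as other.

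Among CD8 T cells, which recognise peptide on MHC class I, the leading beta segments of the matrices hardly resembled each other. Trbv16 led 94 of 273 control CD8 cells with a leading Trbv, 34.4% (28.8 to 40.4), and 7 of 84 IL-27 cells, 8.33% (3.42 to 16.4). Trbv19 led 66 control cells, 24.2% (19.2 to 29.7), and 4 IL-27 cells, 4.76% (1.31 to 11.7). Trbv4 went the other way. It led 45 control cells, 16.5% (12.3 to 21.4), and 49 IL-27 cells, 58.3% (47.1 to 69.0). For all 3 segments the intervals of the matrices did not overlap, and the ratios of IL-27 over control share were 0.242, 0.197 and 3.54. The segments that followed were less frequent. Trbv13-1 led 24 control cells (8.79%) and 3 IL-27 cells (3.57%), Trbv31 led 11 and 2, Trbv13-3 led 10 and 3, and Trbv13-2 led 6 and 7, which is 2.20% and 8.33%. The order in the control matrix was thus Trbv16, Trbv19, Trbv4 and Trbv13-1, where the interval of each of the first 3 overlapped that of the next, while in the IL-27 matrix Trbv4 stood clear of Trbv16 and Trbv13-2, which were equal at 7 cells.

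**Figure D1:**
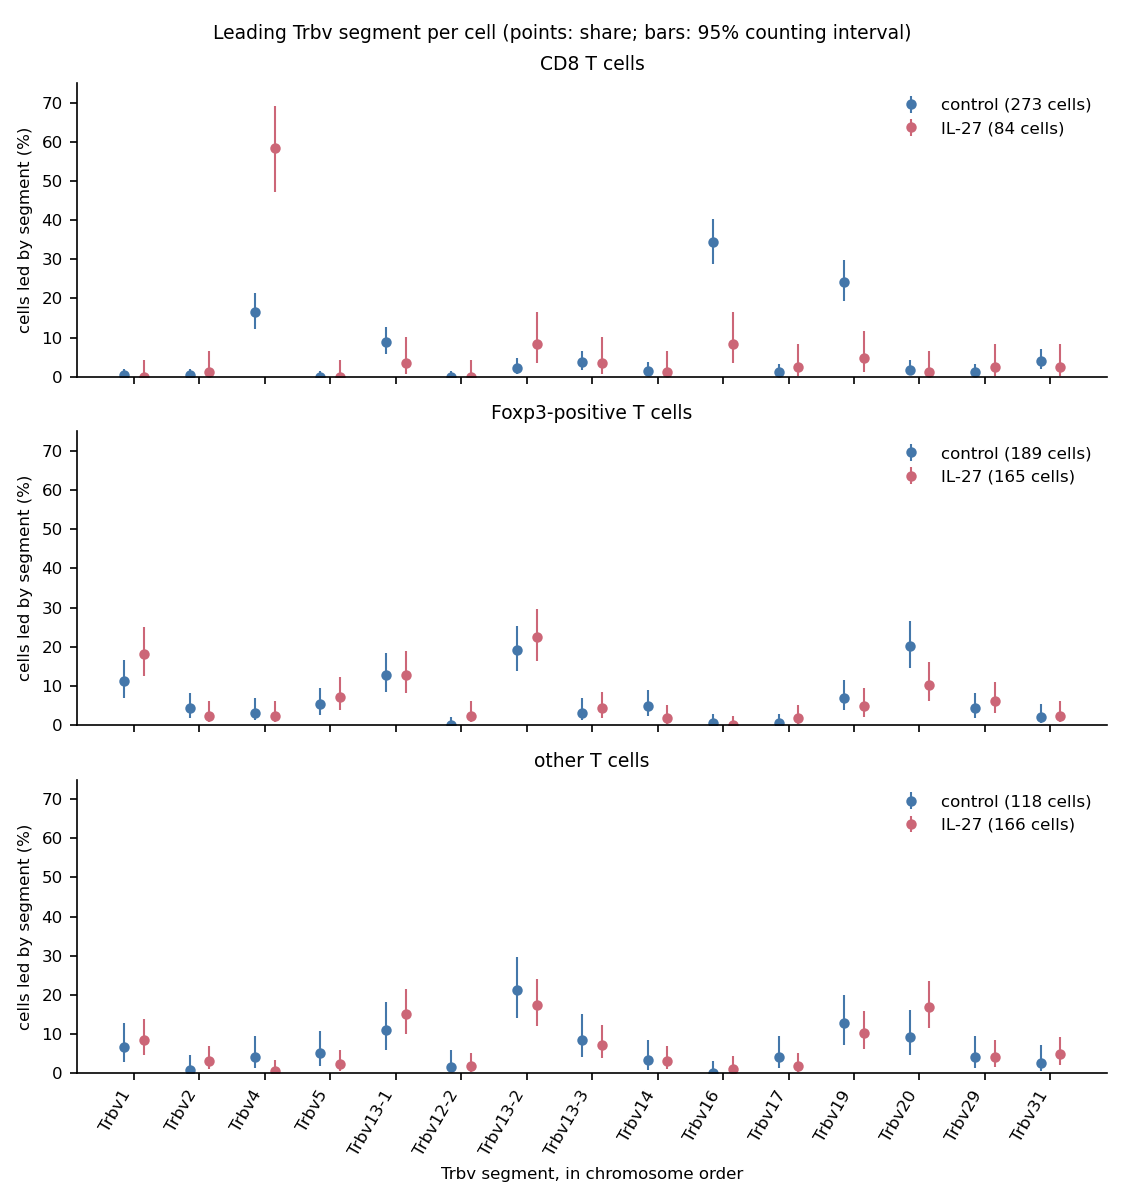
Share of T cells led by each Trbv segment (percent, y axis) for segments in chromosome order (x axis), in CD8, Foxp3-positive and other T cells of the control (blue) and IL-27 (red) matrices, where points are shares and bars 95% counting intervals. In CD8 cells Trbv16 stands at 34.4% and 8.33% and Trbv4 at 16.5% and 58.3%, whereas the Foxp3-positive and other panels have no segment above 22.4%.

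Foxp3-positive T cells, the regulatory class, used a broader set. Trbv13-2 led 36 cells in the control (19.0% of 189) and 37 in the IL-27 matrix (22.4% of 165), and Trbv13-1 led 24 and 21, which is 12.7% of each. Trbv20 led 38 control cells, 20.1% (14.6 to 26.5), and 17 IL-27 cells, 10.3% (6.12 to 16.0). Trbv1 led 21 control cells, 11.1% (7.01 to 16.5), and 30 IL-27 cells, 18.2% (12.6 to 24.9). The intervals of both overlapped between the matrices. Trbv19 led 13 and 8 cells and Trbv5 led 10 and 12. The leading segment of control CD8 cells was rare here: Trbv16 led 1 and 0 Foxp3-positive cells, where 0 of 165 allows a share of up to 1.82%.

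Other T cells were led by the same common segments. Trbv13-2 led 25 cells in the control (21.2% of 118) and 29 in the IL-27 matrix (17.5% of 166). Trbv20 led 11 and 28, which is 9.32% and 16.9%, Trbv13-1 led 13 and 25, and Trbv19 led 15 and 17. Trbv16 led 0 and 2 cells, and Trbv4 led 5 and 1. Across segments, the shares of the matrices had a Pearson r of 0.86 over 18 segments in Foxp3-positive cells and 0.87 over 19 in other cells, but 0.36 over 14 in CD8 cells. Within a matrix, CD8 and Foxp3-positive shares had an r of −0.09 in the control and −0.07 in the IL-27 matrix, and Foxp3-positive and other shares 0.80 and 0.81. These values are across segments of the same libraries, which are not independent, and are given as a description.

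The alpha chain showed the same contrast in CD8 cells. Trav14-1 led 85 of 217 control CD8 cells with a leading Trav, 39.2% (32.6 to 46.0), and 6 of 64 IL-27 cells, 9.38% (3.52 to 19.3). Trav8d-1 led none of the 217 control cells, which allows a share of up to 1.38%, and 30 IL-27 cells, 46.9% (34.3 to 59.8). The absence in control CD8 cells was not an absence of the row, since Trav8d-1 led 14 control Foxp3-positive cells (8.48%) and 10 of 86 other cells. Several less frequent segments were also mostly in the control CD8 cells. Trav14d-3-dv8 led 15 control and 1 IL-27 cell, Trav7d-4 led 15 and 1, Trav6-3 led 12 and 0, and Trav7-4 led 10 and 0. With copies collapsed, Trav7-4 led 26 control cells and 1 IL-27 cell, and Trav14-3 led 22 and 2.

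Alpha usage in Foxp3-positive cells was spread over many segments, none above 9.70%. Trav9-2 led 16 control cells (9.70% of 165) and 1 IL-27 cell of 156, Trav8d-1 led 14 and 3, and Trav19 led 12 (7.27%) and 2. Trav5-1 led 0 control and 12 IL-27 cells (7.69%). Trav4-4-dv10 led 10 and 13, Trav3-3 led 6 and 12, Trav6-7-dv9 led 5 and 12, and Trav9-4 led 5 and 9. In the share vectors, the r between matrices was 0.25 over 65 segments in Foxp3-positive cells, 0.12 over 47 in CD8 cells and 0.57 over 57 in other cells, where few cells per segment limit each value.

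In each matrix 1 pair was far more frequent than the next among CD8 cells. Of control CD8 cells with both a leading Trav and a leading Trbv, 82 of 211, 38.9% (32.2 to 45.8), held Trav14-1 with Trbv16, and 5 of 57 IL-27 cells did, 8.77% (2.91 to 19.3). Trav8d-1 with Trbv4 was held by 26 IL-27 cells, 45.6% (32.4 to 59.3), and by none of the 211 control cells, which allows a share of up to 1.42%. Among control CD8 cells led by Trbv16 with a leading Trav, 82 of 88 had Trav14-1, and among IL-27 cells led by Trbv4, 26 of 37 had Trav8d-1. Trbv4 in the control matrix had no such partner: its 31 cells spread over 11 Trav rows, the most frequent being Trav14d-3-dv8 with 6 cells. Collapsing copies left 9 cells with Trav14-2 and 9 with Trav14-3 among the 32 control Trbv4 cells. The Trbv4 cells of the matrices thus differed in their alpha partner.

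Trbv19, the second beta segment of the control CD8 cells, was shared by a small group of pairs. It went with Trav7d-4 in 14 cells (6.64% of the 211), with Trav6-3 in 12 (5.69%), with Trav14d-3-dv8 in 8, and with Trav7-4 and Trav6-7-dv9 in 7 each. None of these 5 pairs was seen in the 57 IL-27 CD8 cells, which allows up to 5.26% for each. With copies collapsed, Trav7-4 with Trbv19 was held by 22 of 213 cells, 10.3%, in the control matrix. Trav7d-4 and Trav7-4 differ at 1 base of the exon, so how these 14 and 7 cells divide between the copies is uncertain. Collapsed CD8 pairs found in both matrices numbered 4, 7.84% of the 51 control pairs and 19.0% of the 21 IL-27 pairs. These 4 pairs held 94 of 213 control and 13 of 58 IL-27 cells.

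Foxp3-positive pairs were smaller. In the control matrix Trav9-2 with Trbv20 was held by 11 of 141 cells, 7.80%, and Trav19 with Trbv13-2 by 10, 7.09%, and neither pair was in the 97 IL-27 cells. Trav10d with Trbv20 and Trav4-4-dv10 with Trbv14 followed with 6 cells each and Trav12-1 with Trbv13-1 with 5. In the IL-27 matrix Trav14-2 with Trbv13-2 and Trav5-1 with Trbv1 were each held by 7 cells, 7.22%, and by no control cell. Trav6-7-dv9 with Trbv29 was held by 4 IL-27 cells and no control cell, while Trav3-3 with Trbv1 was in both, in 3 and 4 cells. Collapsed pairs present in both matrices numbered 12, which is 15.8% of 76 control and 18.2% of 66 IL-27 pairs. Against CD8 cells, the share of control pairs in common was larger in Foxp3-positive cells, 15.8% against 7.84%. The IL-27 lists differ in length, 66 Foxp3-positive pairs and 21 CD8 pairs, which limits how many control pairs could be shared. Lists of equal size were not compared, so no difference between the classes can be read from these shares. The share of IL-27 pairs was close, 18.2% against 19.0%. By cells the order was the other way in the control matrix, where shared pairs held 25 of 142 Foxp3-positive and 94 of 213 CD8 cells. In the IL-27 matrix they held 18 of 95 and 13 of 58. In other T cells Trav8d-1 with Trbv20 was the most frequent, in 4 of 69 and 5 of 56 cells.

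**Figure D2:**
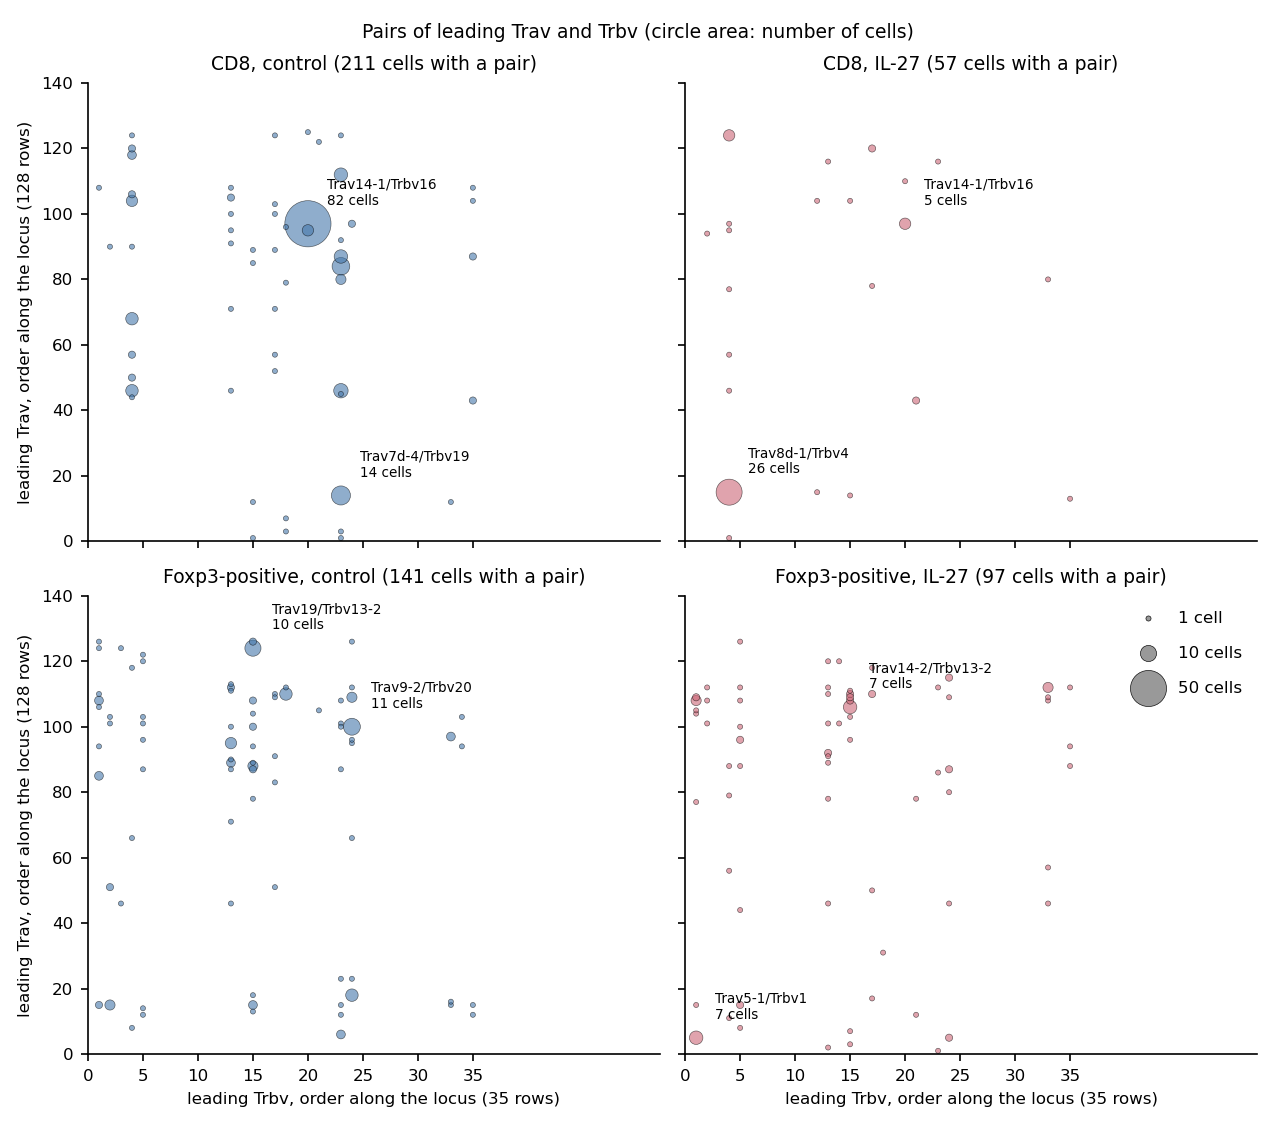
Each circle is a pair of leading Trbv (x axis, rank of the row along the locus, 35 rows) and leading Trav (y axis, rank among 128 rows), with circle area showing the number of cells, in CD8 (top) and Foxp3-positive (bottom) T cells of the control (left) and IL-27 (right) matrices. A single large circle stands out in each CD8 panel, 82 cells in the control and 26 in the IL-27 matrix, while the Foxp3-positive panels have no pair above 11 cells.

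The effective number of segments was lowest in CD8 cells. The inverse Simpson number, the count of equally frequent types that would give the observed chance of drawing the same type in a pair of draws, was 4.69 for leading Trbv in control CD8 cells and 2.82 in IL-27 CD8 cells. It was 8.57 and 8.27 in Foxp3-positive cells and 10.3 and 9.39 in other cells. For leading Trav it was 5.87 and 4.33 in CD8 cells, 27.8 and 29.9 in Foxp3-positive cells and 33.2 and 32.6 in other cells. CD8 cells were thus the least diverse class by this number for both chains in both matrices. For pairs it was 6.13 and 4.60 in CD8 cells, 53.9 and 71.6 in Foxp3-positive cells and 260.7 and 96.3 in other cells. A pair seen more than once was held by 82.9% and 70.2% of CD8 cells, 58.2% and 45.4% of Foxp3-positive cells and 14.5% and 30.4% of other cells. Counts of distinct types at equal cell numbers did not all follow the inverse Simpson number. Drawn down to 84 cells, the control CD8 set held 10.4 distinct leading Trbv against 13 in the IL-27 matrix, the opposite order, and drawn down to 57 cells it held 23.8 distinct pairs against 22. The order of the matrices for CD8 pairs turned in 1 of 12 alternatives, at 1000 UMIs per cell, where the inverse Simpson numbers were 4.05 and 9.33.

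The constant region rows gave a readout of the pairs that the rule did not use. The beta locus has 2 constant genes, Trbc1 and Trbc2, each behind its own joining segments, and a rearranged allele is spliced to 1 of them. All 85 control cells with Trav14-1 and Trbv16, 82 CD8 and 3 with both marks, had Trbc2 UMIs and none had a Trbc1 UMI, with 0 Trbc1 and 1585 Trbc2 UMIs in sum. Of the other 129 control CD8 cells with a pair 51 had Trbc2 alone, 69 had both and 9 had neither. The 85 cells were therefore uniform where the rest were mixed. None of the 94 control CD8 cells led by Trbv16 had a Trbc1 UMI, with or without Trav14-1. Trbc2 alone was thus not particular to this pair. No CD8 cell with a pair had Trbc1 alone in either matrix, whereas 8 of 141 control and 7 of 97 IL-27 Foxp3-positive cells did, so cells with Trbc1 UMIs mostly carried Trbc2 UMIs too, and which of the rows the reads of near-identical constant exons reached is uncertain.

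Other pairs fell on both sides. Trav7d-4 with Trbv19 had Trbc2 alone in 13 of 14 cells, Trav14d-3-dv8 with Trbv19 in 8 of 8 and Trav12-1 with Trbv16 in 5 of 5. Trav6-3 with Trbv19 had both rows in 8 of 12 cells, and Trav14d-3-dv8 with Trbv4 and Trav12-3 with Trbv4 had both in 6 of 6 and 5 of 5. Cells that share Trbv19 thus differed in constant rows by their alpha partner. In the IL-27 matrix the 28 cells with Trav8d-1 and Trbv4, 26 of them CD8, were mixed, 19 with Trbc2 alone and 9 with both. The 5 IL-27 CD8 cells with Trav14-1 and Trbv16 were 2 with Trbc2 alone and 3 with both, unlike the 85 control cells that have the same pair of names. Among Foxp3-positive pairs, Trav5-1 with Trbv1 had Trbc2 alone in 6 of 8 cells and neither in 2, and Trav14-2 with Trbv13-2 had both in 7 of 8 and Trbc1 alone in 1.

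**Figure D3:**
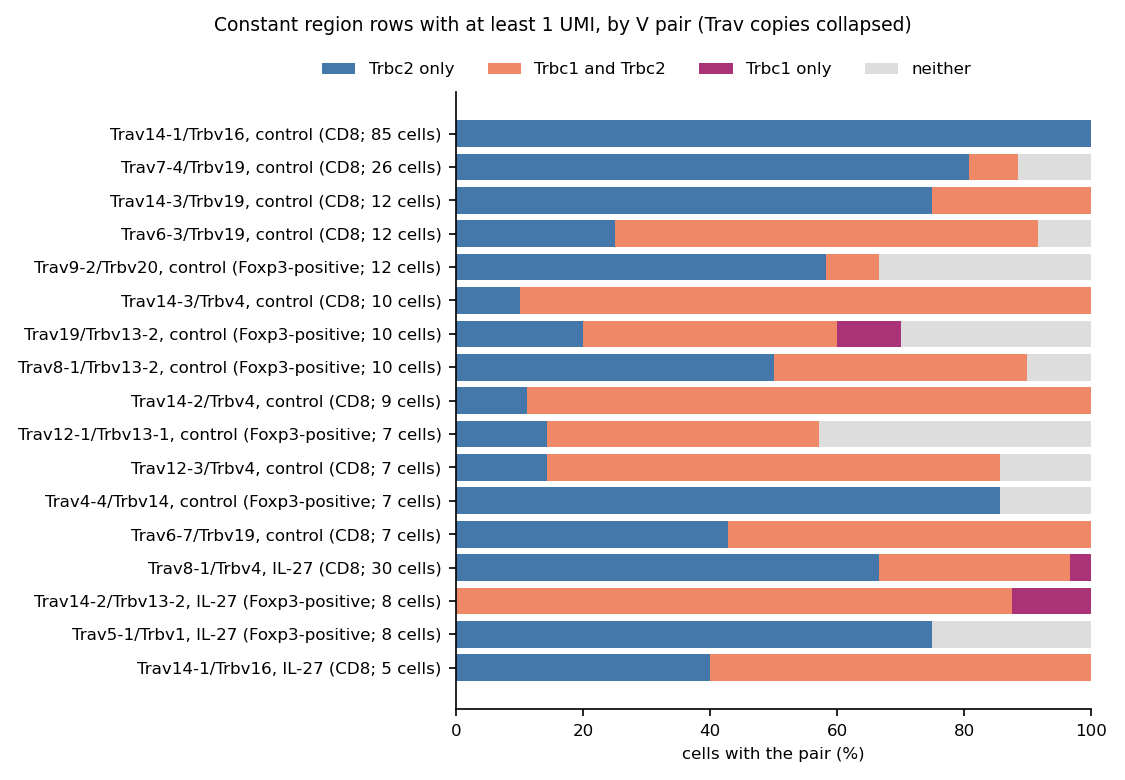
Share of cells (percent, x axis) with UMIs of Trbc2 alone, both constant rows, Trbc1 alone or neither, for the most frequent pairs after collapsing Trav copies (y axis, with matrix, main class and number of cells). The bar of Trav14-1 with Trbv16 in the control matrix is Trbc2 alone in all 85 cells, while the same pair in the IL-27 matrix has both rows in 3 of 5 cells.

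Further receptor rows were found in cells of the frequent pairs, some of these rows in several pairs. Of the 85 control cells with Trav14-1 and Trbv16, 31 (36.5%) also held a UMI of Trav15-1-dv6-1, against 0 of the other 129 paired CD8 cells, which allows a share of up to 2.33%. Of the same 85, 17 (20%) held Trav13-1, against 2 (1.55%). Trav13-1 at chr14:53545014-53545525, Trav14-1 at chr14:53554022-53554558 and Trav15-1-dv6-1 at chr14:53559632-53560247 are neighbours on the plus strand. A UMI of Trgv2, a gamma chain V segment, was in 57 (67.1%) against 39 (30.2%), and one of Trbv13-2 in 31 (36.5%) against 24 (18.6%). The cells of this pair were deeper, with a median of 10328.5 UMIs for the CD8 cells against 8121, and the part of depth in these shares was not tested. Trgv2 and Trbv13-2 were not particular to this pair. Of the 14 control cells with Trav7d-4 and Trbv19, 10 (71.4%) held Trgv2 and 7 (50%) held Trbv13-2. Among the 8 control cells with Trav14d-3-dv8 and Trbv19, all 8 held Trav14n-3, against 9 of 203, and 4 held the joining segment Traj24, against 0 of 203. Trav14n-3 and Trav14d-3-dv8 are copies of 1 name with 96.8% identical exons. Whether the Trav14n-3 UMIs come from a separate transcript is therefore uncertain. In the IL-27 matrix Trbv12-1 was in 8 of the 28 cells with Trav8d-1 and Trbv4 (28.6%), against 2 of 31.

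A second segment of the same chain with at least 2 UMIs was counted for each chain, since both alpha alleles of a T cell can stay rearranged. Of cells whose leading segment had at least 2 UMIs, 7.30% (39 of 534) in the control and 7.56% (22 of 291) in the IL-27 matrix had a second Trbv. A second Trav was in 24.3% (95 of 391) and 10.7% (19 of 178), and in 22.0% and 10.9% with copies collapsed. The alpha share was above the beta share in the control matrix, where the intervals were 20.1 to 28.9 and 5.24 to 9.85, while in the IL-27 matrix they overlapped. In IL-27 CD8 cells the shares were 11.9% (5 of 42, 3.98 to 25.6) for alpha and 14.1% (10 of 71, 6.97 to 24.4) for beta. In IL-27 other cells they were 2.94% (1 of 34) and 7.89% (9 of 114). The intervals overlapped in both classes, so no order can be read there. Cells with a second Trbv were deeper in the control matrix, at a median of 12393 against 6991 UMIs, and 7 of 20 such control cells with both a CD8 and a Foxp3 mark had one (35%). The part of doublets in these shares was not tested.

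A long non-coding RNA row went with Trbv4. The lincRNA 5830405F06Rik, at chr6:41055883-41063102 on the plus strand, overlaps Trbv4 and Trbv5 on the same strand. It had a UMI in 40 of 57 control T cells led by Trbv4 (70.2%) and in 44 of 57 in the IL-27 matrix (77.2%). Cells led by Trbv5 had it in 2 of 17 and 1 of 16, and cells led by any other Trbv in 2 of 527 and 1 of 355. Reads of the overlapping rows cannot be told apart from the counts alone.

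The cells of the most frequent pair were then compared with the other CD8 cells of the same matrix that had a pair, summing UMIs over cells. Genes with at least 20 UMIs over both arms were read, and those at least 1.5-fold apart are called higher or lower. In the control matrix 7.81% of the 8190 genes read were higher and 8.77% lower. The 82 control cells with Trav14-1 and Trbv16 had fewer transcripts of most genes of the naive and stem-like list. Of the 9 genes of that list 8 could be read, 6 lower and 1 higher, with a median log2 ratio of −1.75 against −0.01 over all genes read. Tcf7, the factor of stem-like T cells, had 6.75 CPM against 34.4, or 0.196 times as much (0.0746 to 0.438), in 2 of 82 and 21 of 129 cells. S1pr1, the receptor that lets T cells leave tissue, had 0 and 54 UMIs, which is at least 14.3-fold lower at a floor of 3 counts over the group. Lef1 had a ratio of 0.145 (0.0558 to 0.316) and Klf2 0.290 (0.182 to 0.447), and Ccr7, a lymph node homing receptor, was the exception at 1.72 (1.44 to 2.05).

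The exhaustion genes did not set these cells apart. None of 10 was past 1.5-fold, with Pdcd1, the PD-1 receptor, at 615.3 against 587.9 CPM, a ratio of 1.05 (0.941 to 1.16), and Tox at 1.01 (0.796 to 1.28). None of 8 division genes was past it either, with Mki67 at 1.04 (0.903 to 1.21). Of 13 cytotoxic genes 6 were lower and none higher. Ccl5, a chemokine of effector cells, stood at 2558 against 4917 CPM (ratio 0.520, 0.497 to 0.544), and was seen in 67 of 82 and 122 of 129 cells. Xcl1, Gzmd and Gzme, at 0.111, 0.130 and 0.225, were each seen in 11 or fewer cells of an arm, so few cells set their ratios. Of the receptor genes Trbc1, Cd28, Cd5 and Cd6 were lower and none of 19 was higher, and Cd5, which dampens receptor signalling, had 39.5 CPM against 107.2, or 0.369 times as much (0.254 to 0.526).

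The 26 IL-27 cells with Trav8d-1 and Trbv4 were set against 31 other cells in the same way, where 13.7% of 4387 genes were higher and 12.6% lower. Division genes were higher in these cells. Of 8, 7 were higher, with a median log2 ratio of 1.76 against −0.02 over all genes read. Mki67 stood at 424.2 against 64.5 CPM (ratio 6.58, 4.09 to 11.1), in 9 of 26 and 7 of 31 cells, and Top2a had a ratio of 6.31. Against all 89 other CD8 cells, paired or not, an alternative added after seeing the data, the ratios were 2.52 and 2.34. With that reference 5 of the 8 genes were higher.

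Among cytotoxic genes of the same IL-27 cells 6 were lower and 2 higher of 13. Gzma, a granzyme, had 75.4 CPM against 2116, or 0.0356 times as much (0.0227 to 0.0535), in 4 and 10 cells. Gzmc had a ratio of 0.0779, and 0.429 without the cell with most UMIs in each arm. Gzmb and Prf1, the granzyme and perforin of killing, were close to level at 0.968 (0.869 to 1.08) and 1.02 (0.813 to 1.27). Ifng stood at 235.7 against 41.9 CPM (ratio 5.62, 3.10 to 11.04), in 8 and 6 cells, and without the cell with most UMIs in each arm the ratio was 2.60. Of 10 exhaustion genes Nr4a2, a factor induced by receptor signals, was higher at 2.84 (1.74 to 4.78), and Tox, the exhaustion factor, was lower at 0.390 (0.182 to 0.784) with Entpd1 and Cd160. Of the 9 naive and stem-like genes 5 could be read, with Tcf7, Ccr7 and Klf2 higher, Lef1 lower and a median log2 ratio of 0.67. Against all other CD8 cells 7 could be read, 1 higher and 3 lower, with a median of −0.42, the opposite direction. Tcf7 was at 2.24 (1.03 to 5.27) against the paired cells, and at 0.97 without the top cell of each arm.

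**Figure D4:**
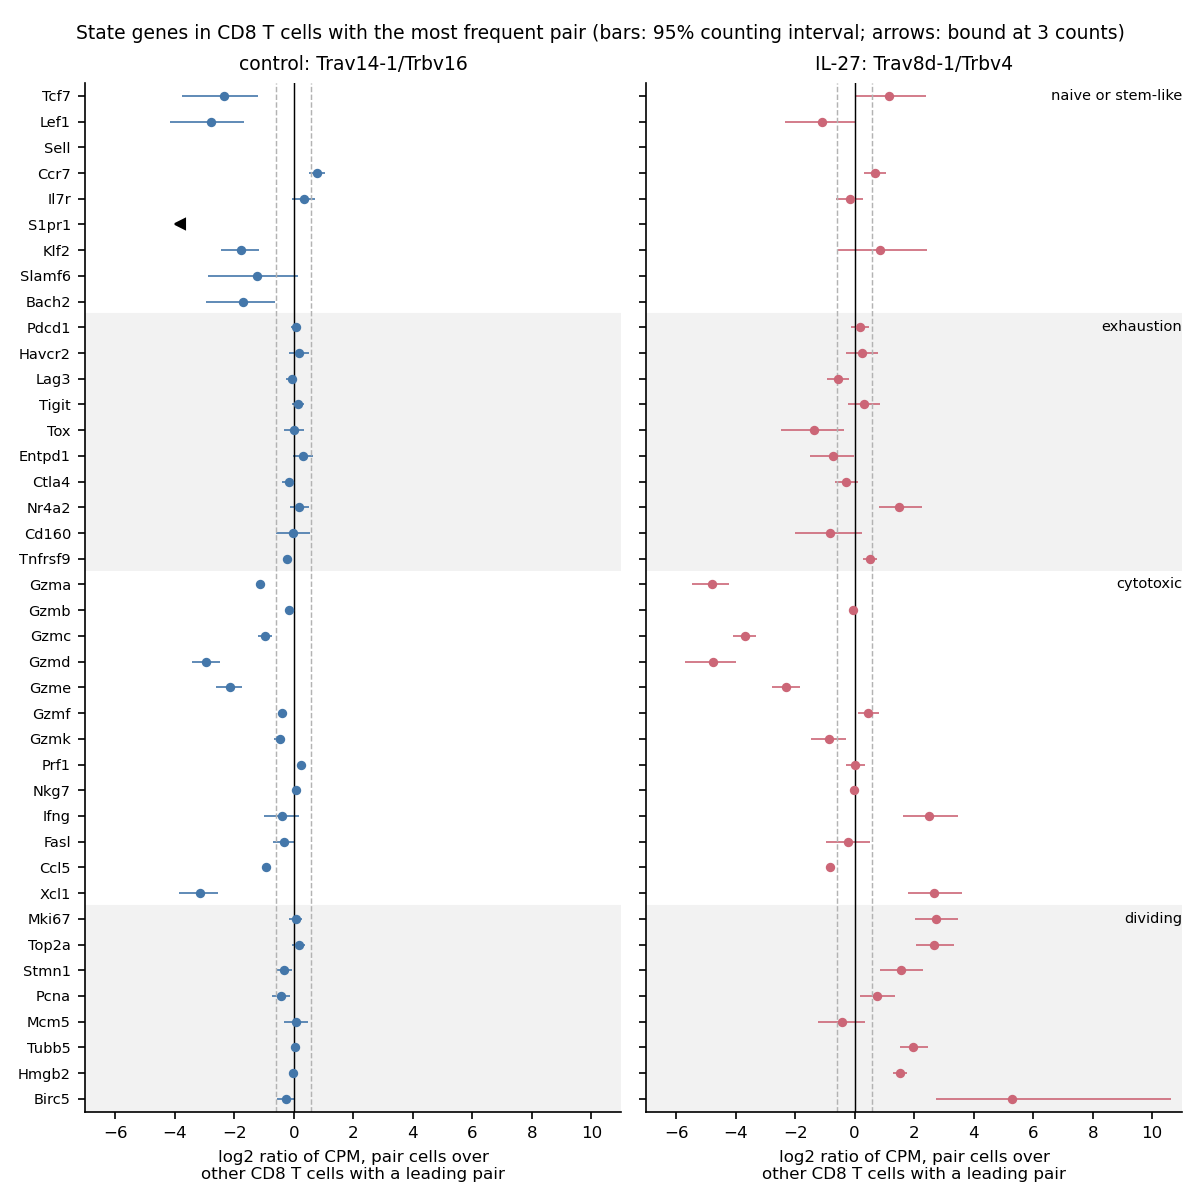
Log2 ratio of CPM (x axis) of each gene of the naive, exhaustion, cytotoxic and dividing lists (y axis) in CD8 cells with the most frequent pair over other CD8 cells with a pair, in the control (left, Trav14-1 with Trbv16) and IL-27 (right, Trav8d-1 with Trbv4) matrices, where bars are 95% counting intervals, dashed lines mark 1.5-fold and the arrow is a bound at 3 counts. Tcf7 and Lef1 lie left of the line in the control panel, where Mki67 sits at a ratio of 1.04, and 7 of the 8 division genes lie right of it in the IL-27 panel, where Mki67 sits at 6.58.

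With the list genes kept and receptor, mitochondrial and ribosomal protein rows left out, genes were also ranked by ratio. The 8 highest genes in the control cells with Trav14-1 and Trbv16 were Upk1a, Mmp9, H2-Ab1, Lyz2, H2-Aa, Mt2, Gm156 and Rgs8. Upk1a, which encodes a membrane protein of the bladder lining, had a UMI in 30 of 82 cells (36.6%), against 2 of 129 other paired CD8 cells (1.55%), and in 0 of 5 IL-27 cells of the same pair of names. Lyz2, Mmp9, H2-Aa and H2-Ab1, genes of myeloid and antigen-presenting cells, rested on few cells: 1 cell held 63.8% of the Lyz2 UMIs and 42.5% of those of H2-Aa. Against all other CD8 cells the ratios of H2-Aa and H2-Ab1 were 0.34 and 0.43, the opposite direction. The 8 lowest were Cxcr3, 5830405F06Rik, Ppic, S1pr1, Lef1, Pkp3, Klf3 and Ly6c2, where S1pr1 and Lef1 belong to the naive list above. In the IL-27 cells with Trav8d-1 and Trbv4 the highest were histone genes led by Hist1h2ae, with Ccl1, Ccl3 and Ube2c. The lowest were Gzma, Gzmd, Gzmc, Gzme, Plac8, Gm8369, Pglyrp1 and Txnip, where the granzymes belong to the cytotoxic list above. Ccl3 had 177 and 9 UMIs but was in 3 of 26 and 7 of 31 cells. Ccl1 was in 3 and 2 cells, and Gzmd and Gzme were each in 1 and 4, so few cells set these ratios.

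The level of V transcripts differed between the matrices in a way that the leading shares do not show. Summed over all T cells, Trbv rows stood at 805.9 CPM (785.6 to 826.7) in the control and 318.7 CPM (304.3 to 333.6) in the IL-27 matrix, a ratio of 0.395, and Trav rows at 412.2 and 162.6 CPM, also 0.395. Constant rows did not follow: Trbc1 and Trbc2 together had a ratio of 0.883 (0.848 to 0.920) and Trac 1.28 (1.19 to 1.36). There were 1.05 Trbv UMIs per beta constant UMI in the control and 0.468 in the IL-27 matrix, and 1.73 and 0.536 Trav UMIs per Trac UMI. These quotients are used only to set the matrices side by side, since they join rows of different length and mapping.

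The shift was present in all 3 classes. Trbv per beta constant UMI was 0.997 and 0.482 in CD8 cells, 1.21 and 0.434 in Foxp3-positive cells and 1.08 and 0.483 in other cells. Trav per Trac UMI was 1.499 and 0.620, 2.08 and 0.484, and 1.70 and 0.570. A V segment can therefore take a smaller part of the UMIs in the IL-27 matrix without leading fewer cells. Why V rows and constant rows moved apart was not tested, and treatment and library cannot be told apart here.

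**Figure D5:**
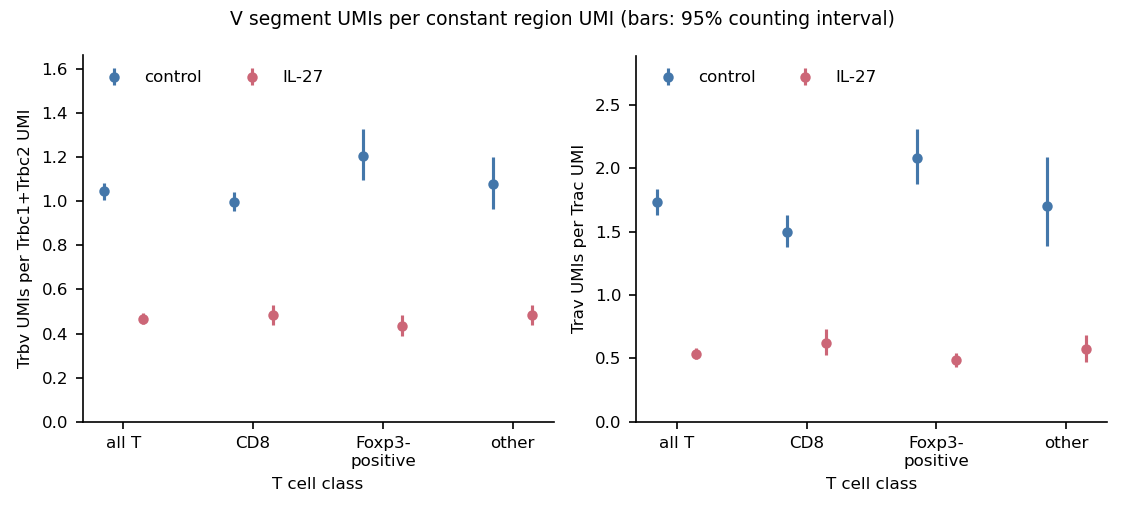
Trbv UMIs per Trbc1 and Trbc2 UMI (left, y axis) and Trav UMIs per Trac UMI (right, y axis) in all T cells and in each class (x axis), with bars as 95% counting intervals. The IL-27 points (red) lie between 0.434 and 0.620 and the control points (blue) between 0.997 and 2.08, with no overlap in any class.

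Most rows that could be read were lower. Over all T cells 19 of the 35 Trbv rows had at least 20 UMIs, 11 of them at least 1.5-fold lower in the IL-27 matrix and 2 higher, and 43 of the 128 Trav rows did, 31 lower and 4 higher. Over all 12142 genes read, 9.5% were lower and 10.9% higher. With no minimum beyond 1 UMI, where a single UMI can set the direction, 24 Trbv rows were 13 lower and 4 higher, and 89 Trav rows were 43 lower and 22 higher. The median log2 ratio was −0.73 for Trbv and −1.92 for Trav rows, against −0.00 over all genes. Trbv16 had 2035 and 77 UMIs, 275.6 and 13.4 CPM, a ratio of 0.0484 (0.0381 to 0.0608). Trbv30 had 24 and 0 UMIs. Trav14-1 had 718 and 21 UMIs and Trbv19 761 and 122. Trbv4, though leading a larger share of IL-27 CD8 cells, had 627 and 358 UMIs over all T cells, a ratio of 0.731 (0.640 to 0.834). Trav8d-1 was among the few higher rows, with 129 and 170 UMIs and a ratio of 1.69 (1.33 to 2.14), as was Trav5-1 with 3 and 41, 17.5 (5.58 to 88.3). Trbv12-1 had 1 and 26 UMIs, a ratio of 33.3 (5.47 to 1365).

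Within the classes rows were also more often lower than higher. In CD8 cells 6 of 12 Trbv rows and 12 of 15 Trav rows were lower, where 13.1% of all genes were, and Trbv4, Trbv29, Trav8d-1 and Trav3-4 were higher, where 10.2% of all genes were. In Foxp3-positive cells 10 of 15 and 21 of 27 were lower, against 11% of all genes, with Trbv17 and Trav5-1 higher, against 9.73%. In other cells 5 of 12 Trbv rows and 2 of 4 Trav rows were lower, against 12.5%, and Trbv1 was higher, against 15.9%. A row that had enough UMIs only through the control matrix had to be lower, so these counts describe the rows read and not all members. With no minimum the CD8 balance turned, with 6 Trbv rows lower and 7 higher of 20 and 19 Trav rows lower and 32 higher of 65.

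Other genes of the receptor pathway had a median log2 ratio of −0.21 over all T cells. Of its 25 genes 21 were read, 4 lower and 3 higher, where 9.5% and 10.9% of all genes were. Lower were Cd3e at 0.647 (0.621 to 0.674) and Cd3g at 0.548 (0.525 to 0.571), signalling chains of the receptor, and the co-receptor genes Cd8a at 0.404 and Cd8b1 at 0.307, in a matrix with fewer CD8 cells. Within CD8 cells Cd8a was at 0.895 (0.825 to 0.971) and Cd8b1 at 0.672 (0.599 to 0.752), both inside 1.5-fold. Cd3e and Cd3g were at 0.729 and 0.631 in CD8 cells, 0.764 and 0.717 in Foxp3-positive cells and 1.03 and 1.02 in other cells. A UMI of these genes is also what the gates asked for. Higher were Cd4 at 1.75 (1.58 to 1.94), the co-stimulator gene Cd28 at 1.59 (1.45 to 1.74) and Trdc, the delta constant region, at 2.00 (1.37 to 2.97). By class, 1 was lower and 3 were higher of 20 in CD8 cells, where 13.1% and 10.2% of all genes were. In Foxp3-positive cells none was lower and 2, Trac and Trbc1, were higher of 18, where 11% and 9.73% of all genes were. In other cells 1 of 19 was lower and 8 were higher, where 12.5% and 15.9% of all genes were. They were Trac, Trbc1, Trbc2, Cd4, Fyn, Cd28, Cd5 and Cd6, and the median log2 ratio was 0.41 against 0.07 over all genes. Rag1 and Rag2, the recombinase of receptor assembly, had 0 UMIs in both matrices.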

How the data were processed

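The 10x Genomics 5′ v2 gene matrices of the control and IL_27 groups were used, 1 per group. The deposited values are whole UMI counts per gene and barcode, made by the authors with Cell Ranger 4.0 (4.0.0 per the file headers) on mm10. The submitters' processing notes also name Seurat 3.2.0, with no role given. The annotation used by the authors is not given in the sources used here, and GENCODE M21 (GRCm38) served for sequences, positions and gene types.

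The cell filter asked for 200 genes, 500 UMIs and a mitochondrial share below 10%, and removed 167 control and 193 IL-27 barcodes. No doublets were removed in the reported values: Scrublet (scanpy 1.11.5) called 0 control and 167 IL-27 barcodes, an uneven result, so removing the 8% of highest scores was an alternative. Intervals are exact (Clopper-Pearson for a share, Poisson for a summed level, conditional binomial for a ratio of sums), at 95%. A share of 0 is given the limit of 3 counts, and a ratio to 0 UMIs uses a floor of 3 counts over the group. Pairs of exons were aligned with biopython 1.88, and numpy 2.4.6, scipy 1.17.1 and pandas 2.3.3 were used. Scripts were tested on simulated data.

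With 1 matrix per group no test of groups was made. Members and lists were chosen with earlier results of these data known. Segments named were the 5 that led most cells per class and matrix (at least 5 cells) and any with at least 10 cells and a 1.5-fold difference in share. Pairs named were the 5 most frequent with at least 3 cells. Genes of the fixed lists were eligible whatever their values, with the 8 highest and 8 lowest genes among those with at least 50 UMIs in the higher arm and in at least 10% of its cells. Receptor segment and constant rows, mitochondrial genes and ribosomal protein genes were left out of the 8 highest and 8 lowest. Alternatives changed the CD3 gate, the minimum for a leading segment, ties, cell filter, doublets, the CD8 gate, cells with both marks, depth (1000 UMIs per cell), Trav copies, scaling, UMI minimum and fold. Added after seeing the data were all other CD8 cells as reference, T cells with neutrophil or macrophage RNA left out, and the top cell per gene left out.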

Additional observations from a re-analysis of the deposited data

How the results depend on the processing

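Of 336 values under an alternative for the main results, 297 stayed within their limits and 39 moved. The main results include the CD8 shares of single segments and pairs. Of 342 values for further results, such as Foxp3-positive shares and values by class, 301 stayed and 41 moved. Ratios of single genes were not part of these counts. The order of the matrices was kept in each alternative run for the CD8 shares of Trbv16, Trbv4 and Trbv19, for both CD8 pairs and for the shares of cells with a leading segment. It turned in 1 of 12 alternatives for the inverse Simpson number of CD8 pairs, in 1 of 11 for that of Foxp3-positive pairs (54.3 and 50.6 with at least 2 UMIs for the leader) and in 1 of 11 for that of leading Trbv in other cells (9.32 and 9.51 without the 8% of highest doublet scores). For the Foxp3-positive pairs Trav9-2 with Trbv20, Trav14-2 with Trbv13-2 and Trav5-1 with Trbv1 the order was kept in 11 of 12 alternatives. In the remaining alternative the pair was at 0 in both matrices. No paired analysis was possible because there is 1 matrix per group and replicate numbers were given only in accession order. Leaving out a replicate was not possible for the same reason.

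The share of T cells with a leading Trbv was 81.6% (control) and 57.7% (IL-27) at 2 CD3 UMIs, 85.2% and 61.1% at 3, 57.6% and 31.7% with at least 2 UMIs for the leader, 50.5% and 23.2% at 1000 UMIs per cell, and 76.2% and 51.3% without cells holding neutrophil or macrophage RNA. For a leading Trav the values were 66.3% and 43.5%, 69.9% and 46.5%, 40.9% and 19.4%, and 28.3% and 13.8% in the same order, with 61.9% in the control matrix without those cells and 57.3% with ties split. At 1000 UMIs per cell Trbv16 led 42.2% of control CD8 cells, Trav14-1 with Trbv16 held 48.9% of pairs, the inverse Simpson number of CD8 pairs was 4.05 and 9.33, and the IL-27 over control ratios of V per constant UMI were 0.342 (beta) and 0.260 (alpha). Higher Trbv rows numbered 0 at 50 UMIs, 4 with no minimum and 1 at 2-fold, and lower ones 7 at 2-fold. Lower Trav rows numbered 19 at 50 UMIs, and higher ones 22 with no minimum and 1 at 2-fold. Against all other CD8 cells, naive genes higher numbered 0 in the control pair and 1 in the IL-27 pair, naive genes lower 3 and exhaustion genes lower 1 in the IL-27 pair. Without the top cell per gene, the IL-27 pair had 0 naive genes higher and 1 division gene lower. The cause was not tested.

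The IL-27 CD8 pairs rest on 57 cells, which limits the precision of their shares.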

Other observations

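Gamma chain transcripts were frequent in CD8 cells that carried an alpha beta pair. In the control matrix 112 of 288 CD8 cells (38.9%) held a UMI of a gamma V row and 108 (37.5%) one of a gamma constant row, and 100 of the 112 had a leading pair. None of the 288 held Trdc, the delta constant region. In the IL-27 matrix the values were 17 of 115 (14.8%), 21 of 115 (18.3%) and 1 cell with Trdc. Foxp3-positive cells held a gamma V row in 2 of 243 and 1 of 331 cells.

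Invariant-type alpha segments were rare. Trav1, the alpha segment of mucosal-associated invariant T cells, led 12 control and 6 IL-27 cells, of which 7 and 3 held a UMI of Zbtb16, a factor of innate-like T cells. Among cells led by another Trav, 9 of 473 and 3 of 312 held one. Trav11, the segment of invariant natural killer T cells, with its d copy, led 1 control cell, which also held Zbtb16, and no IL-27 cell.

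Position in the alpha locus was alike between the matrices in Foxp3-positive cells. The 42 rows from Trav7-4 to Trav23 led 64.8% (57.0 to 72.1) of control and 67.9% (60.01 to 75.2) of IL-27 cells with a leading Trav. In CD8 cells they led 65.9% (59.2 to 72.2) and 35.9% (24.3 to 48.9). Trav8d-1, which led 30 IL-27 CD8 cells, lies outside these rows, while its near-identical copy Trav8-1 lies among them. The IL-27 CD8 value thus depends on a copy name that is uncertain. Trbv12-1, Trbv12-2, Trbv16 and Trbv26 encode beta segments that superantigens of endogenous mouse mammary tumour viruses can delete in some strains. Outside CD8 cells Trbv16 led 1 Foxp3-positive control cell and 2 other IL-27 cells. Trbv26 led no cell of the 3 classes in either matrix, and Trbv12-1 and Trbv12-2 led at most 2 and 4 cells of a class.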
